A study of Ovis aries with 16 samples.

Results

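Expression of 21 genes was lower in old than in young sheep in cells of both disc tissues, out of 30722 genes in the count table. They were chosen on these same libraries. For each gene, every library of old nucleus pulposus cells (NPC) lay below every library of young NPC, and every library of old annulus fibrosus cells (AFC) lay below every library of young AFC. Expression was the read count divided by the total count of the library and multiplied by 1000000 (CPM). Only genes that reached a CPM of 2 in 4 or more of the 16 libraries, with a mean CPM under 1000 and a mean difference between NPC and AFC under 1 on the scale of log2(CPM + 0.5), were eligible, and there were 11760 of them. Of these, 23 were lower in both tissues, and 2 of the 23 were left out by the selection rule, which leaves the 21 genes described here.

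The cells came from lumbar discs of Vendée sheep, 4 female lambs aged 6 months (Y1 to Y4) and 4 female sheep aged 7 to 8 years (O1 to O4). From every animal both cell types were cultured and sequenced at passage 1, which made 4 groups of 4 libraries by age and tissue. The labels name no treatment or allele, and the cells of every group had been grown in culture outside the disc. Both tissues shared their animals, whereas young and old animals were different ones, so that age cannot be told apart from anything else by which the lambs and the sheep differed. The paper describes the lambs as not yet skeletally mature, with healthy discs, and the discs of the old sheep as mildly degenerated. Because RNA was taken from whole cultures, fewer cells of a type and less RNA per cell cannot be told apart. Total counts were between 28782526 and 51800007 per library (median 47438906), and the lowest was the young NPC library of Y4. In no group was a library a repeat of another, as the chi-square per degree of freedom was 52.3 or more in each of the 24 pairs within groups.

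The nucleus pulposus is the gel-like core of the intervertebral disc, rich in proteoglycan and water, and the annulus fibrosus is the ring of collagen lamellae that holds it. In a growing animal, cells of both tissues build this matrix, and in later life the disc loses water and proteoglycan while its cells become fewer. Cells taken into culture keep part of the expression profile of their tissue and lose another part. The deposited identifiers are not paired with symbols in the sources used here, so the 21 genes are described by level, change and order. Their functions, their sequences and the marker genes that would check the labelled cell types were not analysed here.

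An order of this kind was counted over the eligible genes in each tissue. Libraries placed in random order also give it in some genes, and the shares were not tested against that. In NPC, 203 eligible genes (1.73%) had all old libraries below all young ones, and in AFC 182 did (1.55%). The 23 genes with both orders are counted in each of these and were 0.196% of the eligible genes, and 11 genes (0.0935%) were higher in every old library of both tissues. If the limits on level and tissue difference were set aside, 32 genes were lower in both tissues besides the 2 that were left out. Of these 32, 10 did not reach the CPM minimum, 0 were over the mean CPM of 1000 and 1 was over the limit on the tissue difference.

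Most of the 21 genes had low expression. Their mean CPM over the 16 libraries ran from 1.35 to 244 with a median of 5.12, where the median of the eligible genes was 23.7. A mean under 5 CPM was seen in 10 of the 21, against 13.7% of the eligible genes, and 6 of the 21 were over 20 CPM. The CPM minimum was often met through the young libraries, in which these genes are high by choice. All 8 young libraries of 15 genes reached 2 CPM, while in 6 genes no old library did. In 11 genes at least 4 old libraries did.

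The size of the fall varied widely among the genes and is given here as a description, since it was used to choose them. On the scale of log2(CPM + 0.5), old NPC lay below young NPC by a median difference of -1.26, with genes from -2.39 to -0.20, and old AFC lay below young AFC by a median of -1.10, from -2.17 to -0.21. The medians over the eligible genes were 0.03 in NPC and 0.02 in AFC. In each tissue, 13 of the 21 genes fell by more than 1 on this scale. The 10 genes under 5 CPM had median differences of -1.49 in NPC and -1.57 in AFC, and the 5 genes between 5 and 20 CPM had -1.45 and -1.10. In the 6 genes over 20 CPM the medians were -0.50 and -0.49. Single genes departed from this order, as the gene of rank 9, at 35.6 CPM, had differences of -1.26 and -1.83, and that of rank 18, at 2.13 CPM, had -0.54 and -0.40. As a ratio of mean CPM, young over old ran from 1.15 to 12.5 in NPC (median 2.33) and from 1.15 to 19.2 in AFC (median 2.95).

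**Figure D1:**
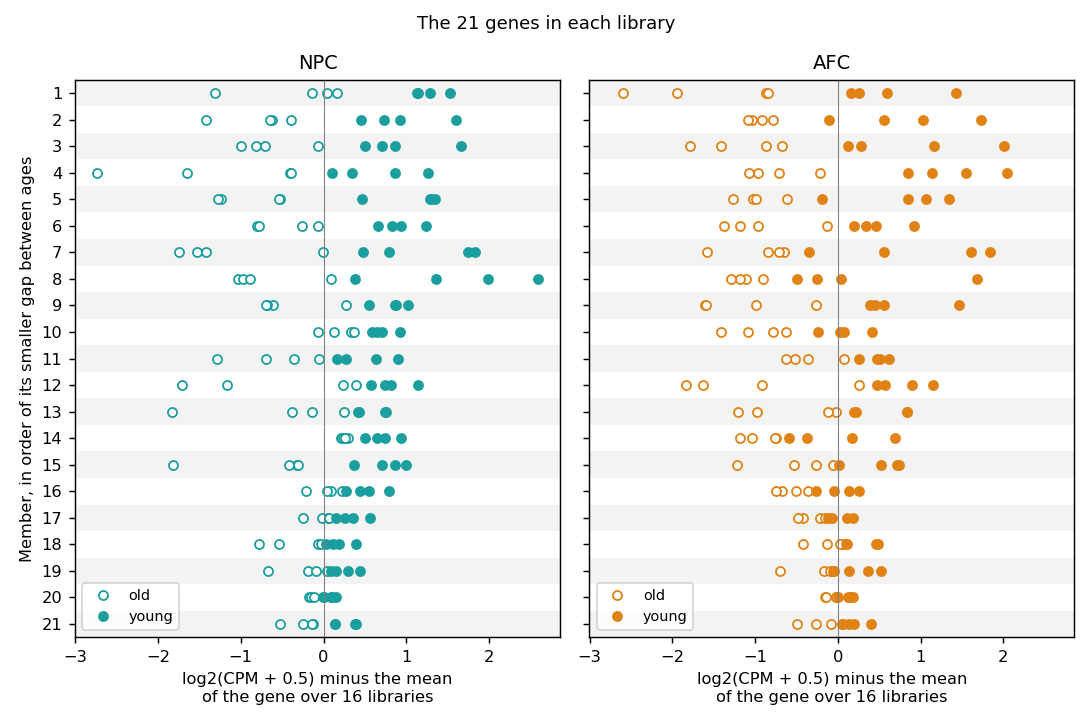
Values of the 21 genes in every library, 1 row per gene in order of its smaller gap between the ages. The x axis is log2(CPM + 0.5) minus the mean of that gene over the 16 libraries, with NPC in the left panel and AFC in the right, filled points for young and open points for old animals. In every row and panel the open points lie to the left of the filled ones, and from row 15 down at least 1 of the panels has a gap under 0.1.

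The genes were ordered by the smaller, over NPC and AFC, of the gaps on the log2 scale between the lowest young and the highest old library. ENSOARG00020005607 was the first in this order. Its CPM in young NPC was 14.7 in Y1, 16.4 in Y2, 19.5 in Y3 and 14.9 in Y4, and in old NPC it was 6.67 in O1, 7.27 in O2, 2.31 in O3 and 5.81 in O4. In young AFC it was 18.2, 10.0, 7.30 and 7.78 in the same order of animals, and in old AFC 1.31, 3.31, 0.653 and 3.38. Young and old libraries were apart by a log2 gap of 0.97 in NPC and 1.01 in AFC, and the young AFC library of Y1 stood well above the other 3. Mean CPM was 16.4 ± 2.22 in young and 5.52 ± 2.22 in old NPC (SD, n = 4), and 10.8 ± 5.04 in young and 2.16 ± 1.39 in old AFC, ratios of 2.97 and 5.01. edgeR estimated log2 fold changes of -1.58 (SE 0.47) in NPC and -2.32 (SE 0.49) in AFC.

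ENSOARG00020022485 was the next in order and had few reads in old animals. Its CPM in young NPC was 5.09 in Y1, 2.99 in Y2, 2.54 in Y3 and 2.02 in Y4, and in old NPC 0.695 in O1, 0.185 in O2, 0.668 in O3 and 0.897 in O4. In young AFC it was 5.58, 2.20, 3.26 and 1.20, and in old AFC 0.563, 0.394, 0.469 and 0.367. Y1 was highest and Y4 lowest among the lambs in both tissues, and no old library reached the level of Y4. The old libraries held between 9 and 44 reads of this gene. Mean CPM was 3.16 ± 1.35 in young and 0.611 ± 0.302 in old NPC, and 3.06 ± 1.88 in young and 0.448 ± 0.0881 in old AFC (SD, n = 4). The edgeR log2 fold changes were -2.38 (SE 0.50) in NPC and -2.76 (SE 0.51) in AFC.

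**Figure D2:**
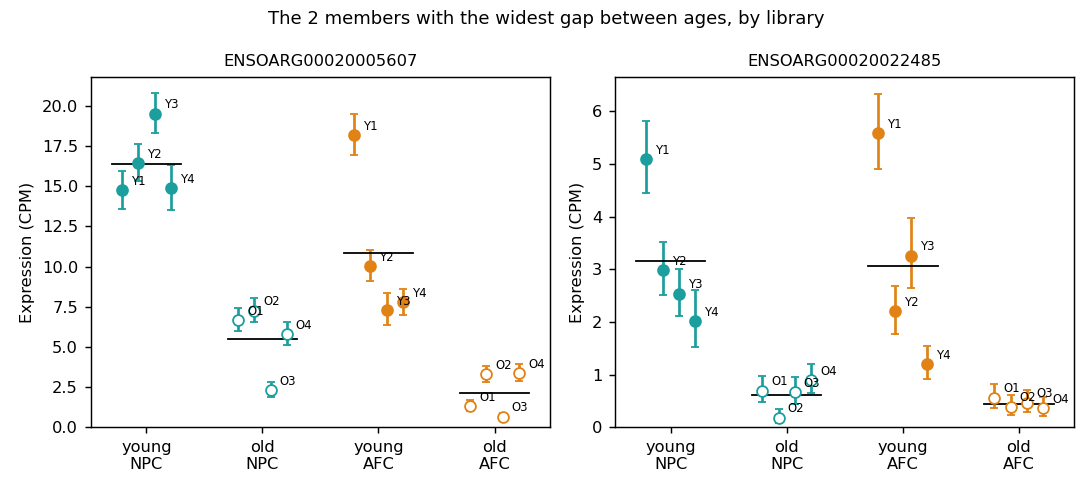
CPM of ENSOARG00020005607 and ENSOARG00020022485 in each library, by group. Points are libraries labelled with their animal, bars are exact Poisson 95% intervals of the count, and lines are group means. In both genes every old library lies below every young library of the same tissue, and ENSOARG00020005607 spreads from 7.30 to 18.2 CPM in young AFC.

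Among the remaining genes, the 8 that followed in the order (ranks 3 to 10) had a median mean CPM of 3.01 and median log2 differences of -1.76 in NPC and -1.79 in AFC. The 11 genes of ranks 11 to 21 had a median mean CPM of 10.4 and smaller median differences of -0.52 and -0.59. The largest ratios of mean CPM belonged to the gene of rank 8, whose 4 young NPC libraries held 665 reads and whose 4 old NPC libraries held 53. In AFC it had 178 reads in young and 13 in old libraries, and 1 old library, that of O4, had 0 reads. Its young NPC libraries were themselves far apart, from 1.10 CPM in Y2 to 6.90 in Y3. The gene of rank 7 also had an old library at 0 reads, the NPC library of O3, while that of O4 stood at 1.16 CPM. No young library of any of the 21 genes was at 0.

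The most abundant gene, of rank 20, showed one of the smallest gaps. Its CPM was 244 to 269 in the NPC of lambs against 215 to 243 in those of old sheep, and 243 to 277 against 217 to 239 in AFC. Young and old libraries thus met almost edge to edge, with a log2 gap of 0.007 in NPC. The genes just inside the limit had smaller gaps of 0.005, 0.007, 0.015, 0.029 and 0.037. The closest eligible genes outside it overlapped between the ages in a tissue, with gaps of -0.003, -0.008, -0.014, -0.020 and -0.031. The order of libraries in 7 of the 21 genes rested on a gap under 0.1 in a tissue, and 9 genes had a gap of at least 0.25 in both.

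The precision of single libraries was set by their reads. The exact Poisson 95% intervals of the lowest young and the highest old library, which cover counting error only, were apart in NPC for 11 of the 21 genes and in AFC for 6. For 6 genes, those of ranks 1, 2, 3, 4, 9 and 11, they were apart in both tissues. In the other 15 genes the intervals of the 2 libraries at the edge overlapped in NPC, in AFC or in both. When CPM was computed with TMM effective library sizes, 18 genes were lower in both tissues, and 19 were with DESeq2 size factors. Both scalings shared 16 genes with the 21, and both lost the same 5, whose gaps were at most 0.064.

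Tests across all 15521 genes that passed edgeR's low-count filter were made on the same contrasts that chose the genes, and nothing is read from their counts. With edgeR's quasi-likelihood test and Benjamini-Hochberg adjustment at 0.05, 0 of the 21 genes passed in NPC, where 0.0129% of all genes were called lower in old, and 0 passed in AFC, where 0% were. At an unadjusted p under 0.05 edgeR counted 20 of the 21 in each tissue, where 3.67% of all genes in NPC and 5.48% in AFC were lower in old. DESeq2 called 9 of them in NPC, with 0.283% of all genes lower, and 11 in AFC, with 0.941% of all genes lower. The edgeR log2 fold changes of the 21 ran from -3.68 to -0.22 in NPC (median -1.24) and from -4.17 to -0.20 in AFC (median -1.54).

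The rule fixed the direction in both tissues but not which tissue had the larger fall. On the log2(CPM + 0.5) scale, 10 genes fell more in NPC and 11 fell more in AFC, with both falls within 0.5 of each other in 15. By edgeR's interaction of age and tissue, 0 of the 21 genes passed the threshold, as did 0% of all genes, and at an unadjusted p under 0.05 there was 1 of the 21 (4.4% of all genes). DESeq2 also called 0 of the 21, with 0.0322% of all genes, and counted 1 at an unadjusted p under 0.05 (5.43% of all genes). The difference of the 2 log2 fold changes, NPC minus AFC, lay between -0.46 and 0.95 with a median of 0.08. Its SE ran from 0.10 to 1.32 (median 0.47), so an unequal fall within that error was not detectable.

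**Figure D3:**
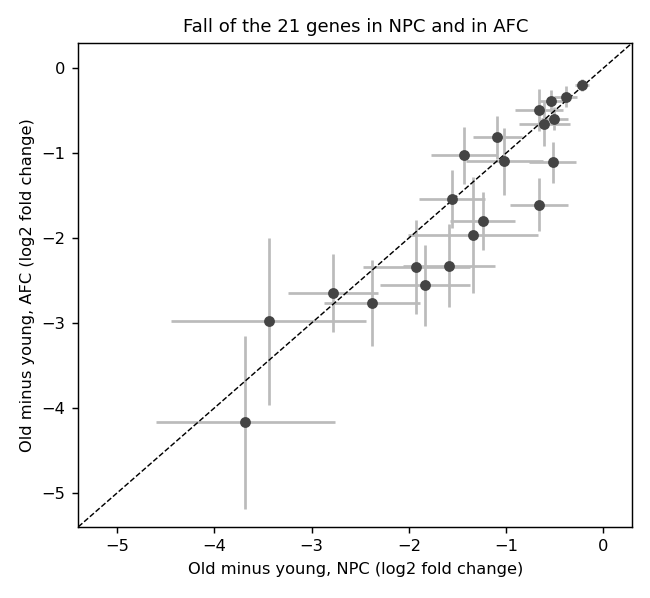
edgeR log2 fold change, old minus young, of each of the 21 genes in NPC (x axis) and AFC (y axis). Bars are standard errors and the dashed line marks equal changes. All points lie below 0 on both axes, from -3.68 to -0.22 in NPC and from -4.17 to -0.20 in AFC, and the points with the largest falls have the longest bars.

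The level of these genes was also compared between NPC and AFC, a difference that the rule limited in size. The CPM minimum could also favour a tissue, since 6 of the 21 genes, those of ranks 2, 5, 7, 8, 10 and 19, would not have met it without the young NPC libraries. On the mean of the 8 animals, 16 of the 21 genes were higher in NPC, where 47.8% of the eligible genes were, and the median difference, NPC minus AFC, was 0.21 against -0.01. In lambs 18 were higher in NPC on the mean (48.2% of the eligible genes) and in old sheep 14 were (48.3%). Of the 15 genes that met the CPM minimum without the young NPC libraries, 10 were higher in NPC on the mean of the 8 animals, 12 in lambs and 9 in old sheep. These counts are descriptions and give no support to a direction. Most of these differences were small. In lambs, edgeR called 0 of the 21 genes higher in NPC, with 0% of the eligible genes, and counted 4 at an unadjusted p under 0.05 (2.02%). The 4 include the gene of rank 10, which is among the 6 that needed the young NPC libraries to meet the CPM minimum. DESeq2 called 0 of the 21 in lambs (0.102%), and edgeR with the animal as a block 0 (0%).

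In old sheep, edgeR called 3 of the 21 genes, all higher in NPC, where 0.842% of the eligible genes were called in that direction, and 5 at an unadjusted p under 0.05 (7.33%). The same 3 were called by DESeq2 (2.95% of the eligible genes) and with the animal as a block (1.15%). They were the 3 genes that were higher in NPC than in AFC of the same animal in all 8 animals, an order found in 2.24% of the eligible genes. The old sheep that gave the calls are among the 8 animals, so this order is not independent of the calls. For 1 of the 3, of rank 10, the order in lambs was partly set by the CPM minimum. None of the 21 was higher in AFC in all 8, but the share of the eligible genes with that order is not given here, so nothing is read from this count. With an animal left out, calls were lost among the eligible genes too. Without O1, 0 of the 21 genes and 0.017% of the eligible genes were called higher in NPC, and without O3, 0 of the 21 and 0.136%. Without O2, 1 of the 21 and 0.468% were called, without O4 1 and 0.196%, without Y3 2 and 0.587%, and without Y4 2 and 0.272%.

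Of these, 2 are given library by library, chosen after their values were seen. The gene of rank 10 had a CPM of 1.93, 1.99, 1.60 and 1.35 in the NPC of O1 to O4 and of 0.225, 0.748, 0.408 and 0.618 in their AFC. In lambs Y1 to Y4 it had 2.39, 2.51, 3.16 and 2.64 in NPC and 1.14, 1.46, 2.07 and 1.53 in AFC. NPC and AFC libraries did not overlap at either age, and the AFC library of O1 held only 10 reads. This gene met the CPM minimum of 2 through the 4 young NPC libraries and the AFC library of Y3 alone. The edgeR log2 fold change, NPC minus AFC, was 1.75 (SE 0.31, adjusted p = 0.0161) in old sheep and 0.80 (SE 0.30, adjusted p = 0.653) in lambs. The interaction was 0.95 (SE 0.43), the largest of the 21 genes, with an adjusted p of 0.999, so a difference between the ages was not shown.

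The gene of rank 14 had a CPM of 5.40, 5.75, 5.51 and 5.59 in the NPC of O1 to O4 and of 2.55, 1.75, 1.98 and 2.51 in their AFC. The old NPC libraries thus lay close together and all above the old AFC libraries. In lambs Y1 to Y4 it had 6.74, 7.46, 9.30 and 8.03 in NPC and 3.45, 2.87, 7.73 and 5.23 in AFC, where the AFC library of Y3 reached into the range of NPC. Its log2 fold change, NPC minus AFC, was 1.32 (SE 0.24) in old sheep, with an adjusted p of 0.0176 by edgeR, and 0.73 (SE 0.24) in lambs, with an adjusted p of 0.530. The call in old sheep was lost with any of the 4 old sheep left out, at adjusted p = 0.0910 without O1, 0.0590 without O2, 0.0659 without O3 and 0.0516 without O4 by edgeR, whereas the gene of rank 10 lost it without O1 (0.0763) or O3 (0.0577) and was the gene called without O2 or O4. The third gene, of rank 16, had 29.5 to 40.1 CPM in old NPC and 20.2 to 26.5 in old AFC, with a log2 fold change of 0.60 (SE 0.14). The mean tissue differences of 3 of the 21 genes, those of ranks 1, 10 and 14, were over 0.9 and so near the limit of 1 that the rule set. That of the gene of rank 16 was 0.55.

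**Figure D4:**
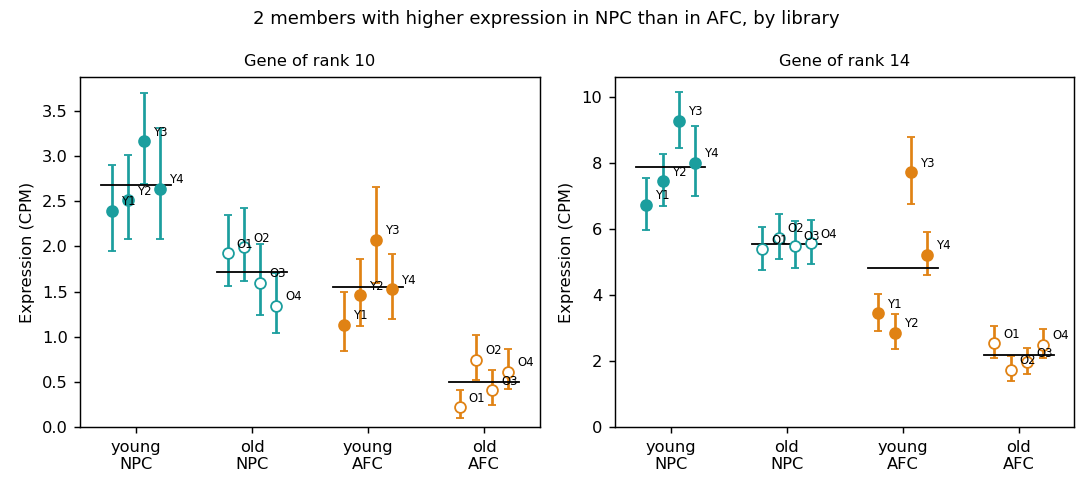
CPM of the genes of rank 10 and rank 14 in each library, by group. Points are libraries labelled with their animal, bars are exact Poisson 95% intervals of the count, and lines are group means. Old NPC lies above old AFC in both genes, at 1.35 to 1.99 against 0.225 to 0.748 CPM and at 5.40 to 5.75 against 1.75 to 2.55 CPM.

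**Figure D5:**
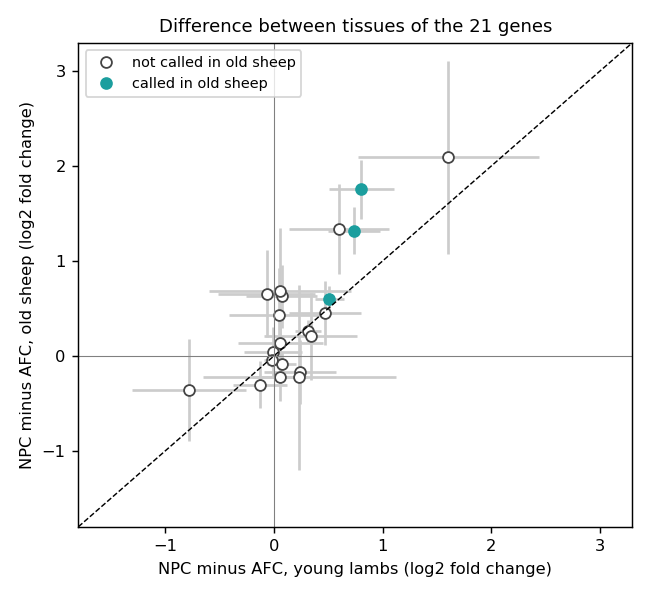
edgeR log2 fold change, NPC minus AFC, of each of the 21 genes in lambs (x axis) and in old sheep (y axis). Bars are standard errors, the dashed line marks equal differences, and the 3 filled points are the genes called in old sheep at an adjusted p under 0.05. The filled points lie at 0.60, 1.32 and 1.75 in old sheep, and the point with the largest difference, 2.10 in old sheep, has a SE of 1.02 and was not called.

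The spread between animals of a group was larger for these genes than for the eligible genes. The median SD of log2(CPM + 0.5) within a group was 0.21 for young NPC and 0.42 for old NPC, and 0.34 for young AFC and 0.31 for old AFC. Over the eligible genes it was 0.16, 0.22, 0.25 and 0.24, which were mostly more abundant. The mean over the 21 genes was 3.57 ± 0.17 (SD, n = 4) for young and 2.39 ± 0.16 for old NPC, and 3.33 ± 0.23 for young and 2.12 ± 0.15 for old AFC. Over the eligible genes it was between 4.53 and 4.54 in every group. Among the lambs, Y3 had the highest mean over the 21 genes in both tissues, at 3.74 in NPC and 3.66 in AFC, and among the old sheep O3 had the lowest, at 2.16 and 1.92. In NPC, Y1 was the highest lamb for 10 of the 21 genes and Y3 for 7, and the shares over the eligible genes were not counted there. In AFC, Y3 was the highest lamb for 11 of the 21 genes, and for 33.6% of the eligible genes, over which its mean was also the highest of the young AFC libraries. The AFC library of Y3 was the shallowest of young AFC, with 30391717 counts, and its NPC library was the deepest of young NPC, with 50874478. A relation of depth to these values was not tested.

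The animals at the edge of the gap were several, and their counts by animal are descriptions without a share over the eligible genes. In NPC the lowest lamb was Y4 for 8 genes, Y2 for 7, Y1 for 5 and Y3 for 1, and in AFC it was Y2 for 8, Y1 for 6, Y4 for 5 and Y3 for 2. The highest old sheep in NPC was O2 for 8 genes, O4 for 7, O1 for 4 and O3 for 2, and in AFC O4 for 8, O1 for 6, O2 for 4 and O3 for 3. The lowest lamb was the same animal in NPC and AFC for 8 of the 21 genes (38.1%), as it was for 27.8% of the eligible genes, and the highest lamb was the same for 9 (42.9%, against 30.4%). The lowest old sheep was the same for 8 genes (38.1%, against 26.2%) and the highest for 4 (19%, against 21.6%).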

How the data were processed

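RNA of NPC and AFC at passage 1 from 8 sheep was sequenced from stranded mRNA libraries. After alignment by STAR against the genome of the Rambouillet breed, the authors deposited read counts per Ensembl gene, with no normalisation. The submitters' processing notes name FastQC 0.11.8, fastp, STAR 2.7.10b and HTSeq 2.0.3. How reads shared between genes were counted is not given in the sources used here, so overlapping genes and near-identical copies are less certain.

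All 16 libraries were used, grouped by their labels. CPM was the count over the library total times 1000000. The 21 genes and all lists were chosen with earlier results of these data known. The rule for genes given by identifier was the 2 with the widest smaller gap between ages. No other identifier is given, because 0 of the 30722 identifiers matched a table of symbols for assembly ARS-UI_Ramb_v3.0, which is not the build the authors used. Fixed lists of marker, matrix, signalling, growth and cell cycle genes could therefore not be used.

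Counts were fitted in R 4.3.3 with edgeR 4.0.16 (filterByExpr, TMM, 4 group means, quasi-likelihood test, Benjamini-Hochberg adjustment at 0.05). The SE was the absolute log2 fold change over the square root of F. DESeq2 1.42.0 and limma 3.58.1 were alternatives. NPC and AFC of an animal were paired by the labels. Their deviations from the group means correlated by 0.14 on average, and above 0.1 in 4 of 8 animals. Intervals of counts are exact Poisson at 95%. Of these steps, only the edgeR fit was run on simulated counts. Those had changes placed in old NPC and no effect shared by NPC and AFC of an animal. The other alternatives were RLE normalisation, 2 other count filters, other limits and scalings in the selection rule, and leaving out each animal.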

Additional observations from a re-analysis of the deposited data

Results flagged for a closer look

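The log2(CPM + 0.5) of the 4 genes given library by library and the mean over the 21 genes was examined in each of the 4 groups for a library far from the other 3, and 0 of the 20 sets of 4 libraries held one. Over all 21 genes, 5 of the 84 sets did, where chance gives about 1 in 20.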

How the results depend on the processing

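Of 187 recomputed values, 173 stayed within the limits set for a change, 14 moved and 0 reversed. Most of the 187 were log2 fold changes of the 4 genes given library by library, and many others were counts that stayed at 0. A count of 30 or 31 genes in place of 21 was within the limits. The tally is therefore no measure of how stable the set of genes is. A CPM minimum of 5 left 13 genes, all among the 21, whereas no minimum gave 31, and no limit on the tissue difference or a pseudocount of 2 in it gave 22, each with all 21. Leaving out an animal makes it easier for the ages not to overlap but harder to reach the CPM minimum in 4 libraries, and the number of genes then ran from 18 without Y3 to 66 without Y2, with 41 without O2, 43 without O3 or without Y1, 53 without O4, 33 without Y4 and 30 without O1. Of the 21 genes, 15 met the rule in all 8 of these sets. For age, DESeq2 called 9 of the 21 in NPC and 11 in AFC where edgeR called 0. Leaving out an animal gave 0 throughout in NPC, where at most 0.0319% of all genes tested were called. In AFC it gave 0 to 2, the 2 without O4, where 0.0447% of all genes tested were called in either direction. For tissue in old sheep the count of 3 ran from 0 to 3 with an animal left out, and without O1 the share of eligible genes called higher in NPC was 0.017% in place of 0.842%. With the animal as a replicate block the counts were 0 for age in NPC and in AFC (limma-voom), 0 for tissue in lambs, 3 in old sheep and 0 for the interaction, and so the block changed no call. Log2 fold changes with an animal left out ran from -1.74 to -1.33 in NPC and from -2.66 to -1.95 in AFC for ENSOARG00020005607, and from -2.62 to -2.06 and from -3.03 to -2.29 for ENSOARG00020022485. Tissue differences in old sheep ran from 1.43 to 2.00 for the gene of rank 10 and from 1.20 to 1.41 for that of rank 14. The ratio of the gene of rank 8 rests on 53 reads in old NPC and 13 in old AFC.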

Other observations

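After the mean of each group was removed, the 210 pairs of the 21 genes had a median Pearson correlation of 0.124 over the 16 libraries, from -0.673 to 0.796, and 63.8% of the pairs were above 0. All pairs of eligible genes had a median of 0.045 with 53.4% above 0. These are descriptions over libraries that share animals and depth, and no test was made.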
